A study of Homo sapiens with 6 samples.

Results

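The 36 genes described here act in glucose use and the low-oxygen response, and are among 58735 genes measured while H9 human embryonic stem cells were differentiated into cardiac organoids. The genes were taken by name from pathway membership, with earlier results of these data known. They comprise 23 genes of glycolysis, counting glucose and lactate transporters, and 13 other genes of the hypoxia response. H9 is an established embryonic stem cell line, and cardiac organoids are small 3-dimensional cultures grown to hold heart cell types. RNA was taken at day 0, day 2, day 3, day 4, day 6 and day 30, with 1 library for each day. The labels state a harvest of 10 organoids per time point, and give all 6 samples the H9 line and the same cell type, embryonic stem cell. The labels name no other genotype, agent or oxygen level for any of the days.

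Glycolysis splits glucose into pyruvate in the cytosol and yields ATP without oxygen, and lactate dehydrogenase then turns pyruvate into lactate for export. Stem cells of the early embryo are known for high glycolysis, and heart muscle for burning fat and lactate in mitochondria. In low oxygen, the prolyl hydroxylases encoded by the EGLN genes slow down, the HIF alpha subunits HIF1A and EPAS1 (HIF-2 alpha) escape breakdown, and with ARNT they switch on target genes. Those targets include most glycolytic enzymes, the angiogenic growth factor VEGFA and the hydroxylase EGLN3 itself. HIF activity is set largely at the protein level, which was not measured here.

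Expression is given as FPKM, reads per kilobase of gene, scaled by a denominator for each library, so that levels of different genes can be set side by side. Whole reads could be recovered from these values, and the libraries held between 13500887 and 15526924 of them. A gene was measured in a comparison when it had at least 1 FPKM in either library. It is said to have risen or fallen when log2(FPKM + 1) differed by at least 1, which is a little over a doubling. With 1 library per day there is no replicate error and no p-value. Ranges in parentheses after a fold or share are 95% intervals that cover counting error only. In such bulk samples, fewer cells of a type and less RNA per cell cannot be told apart.

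The markers followed the labelled days but not the labelled cell type at later ones. The stem cell factor POU5F1 stood at 561 FPKM at day 0 and 0.280 at day 30. The 10 cardiomyocyte markers summed to 5.83 FPKM at day 0, 375 at day 6 and 220.5 at day 30. The 5 fibroblast markers summed to 8.55 FPKM at day 0 and 5386 at day 30, and 5 endoderm and liver markers to 0.166 and 481. At day 30 COL3A1 alone gave 4173 FPKM of the fibroblast sum, and AFP 299 and APOA1 125 of the other. FOXA2, of the endoderm and liver list, went the other way after day 3, from 66.2 FPKM then to 4.10 at day 30. Mitochondrially encoded genes took 7.51% of reads at day 0, 5.93% at day 2, 2.92% at day 3, 5.15% at day 4, 3.86% at day 6 and 1.91% at day 30.

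HIF complexes bind the core sequence ACGTG or GCGTG, so stretches from the 250 bases before the gene starts of 4 members with ACGTG, and of LDHB without it, are shown here. Each is the part of those 250 bases that precedes any annotated exon. ANKRD37 had no such part of at least 30 bases, so 30 bases from its first match are shown. In LDHA, ACGTG on either strand occurs 5 times in the 250 bases and 2 times in the stretch shown. They come from RefSeq on GRCh38.p14, are written 5′ to 3′ on the strand of the gene, and capitals mark ACGTG on either strand, including CACGT, its reverse complement.
ANKRD37: CACGTGccagtgtttgtgtACGTGcggccg
PGK1: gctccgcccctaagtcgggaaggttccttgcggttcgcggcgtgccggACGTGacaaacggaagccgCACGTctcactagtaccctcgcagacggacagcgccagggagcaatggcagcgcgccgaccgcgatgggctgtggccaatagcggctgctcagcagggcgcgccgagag
BNIP3: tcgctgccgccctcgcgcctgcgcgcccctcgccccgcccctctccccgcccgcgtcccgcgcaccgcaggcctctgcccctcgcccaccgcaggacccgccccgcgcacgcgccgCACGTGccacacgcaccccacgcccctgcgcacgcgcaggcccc
LDHA: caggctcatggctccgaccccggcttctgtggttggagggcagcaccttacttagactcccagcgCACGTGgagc
LDHB: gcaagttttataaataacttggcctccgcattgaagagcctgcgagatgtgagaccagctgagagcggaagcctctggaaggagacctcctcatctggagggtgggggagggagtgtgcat

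These stretches lie at chr4:185396679-185396708 on the plus strand for ANKRD37, chrX:78103998-78104173 (plus) for PGK1 and chr10:131982014-131982173 (minus) for BNIP3. Those of LDHA and LDHB lie at chr11:18394313-18394387 (plus) and chr12:21657972-21658092 (minus). The palindrome CACGTG, which is also the E-box bound by MYC and USF factors, holds the core on both strands. Promoter entries matched 31 of the 36 members, and SLC2A3, SLC16A1, VEGFA, NDRG1 and BNIP3L had none. In the 250 bases before the first listed start, ACGTG occurred on either strand in 12 of the 31 members (38.7%), against 18.7% of 27305 genes with an entry. Either core occurred in 20 of the 31 (64.5%), against 43.1% of those genes. The 2 sets were not matched for base composition, and a match is a run of letters, not a shown binding site.

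**Figure D1:**
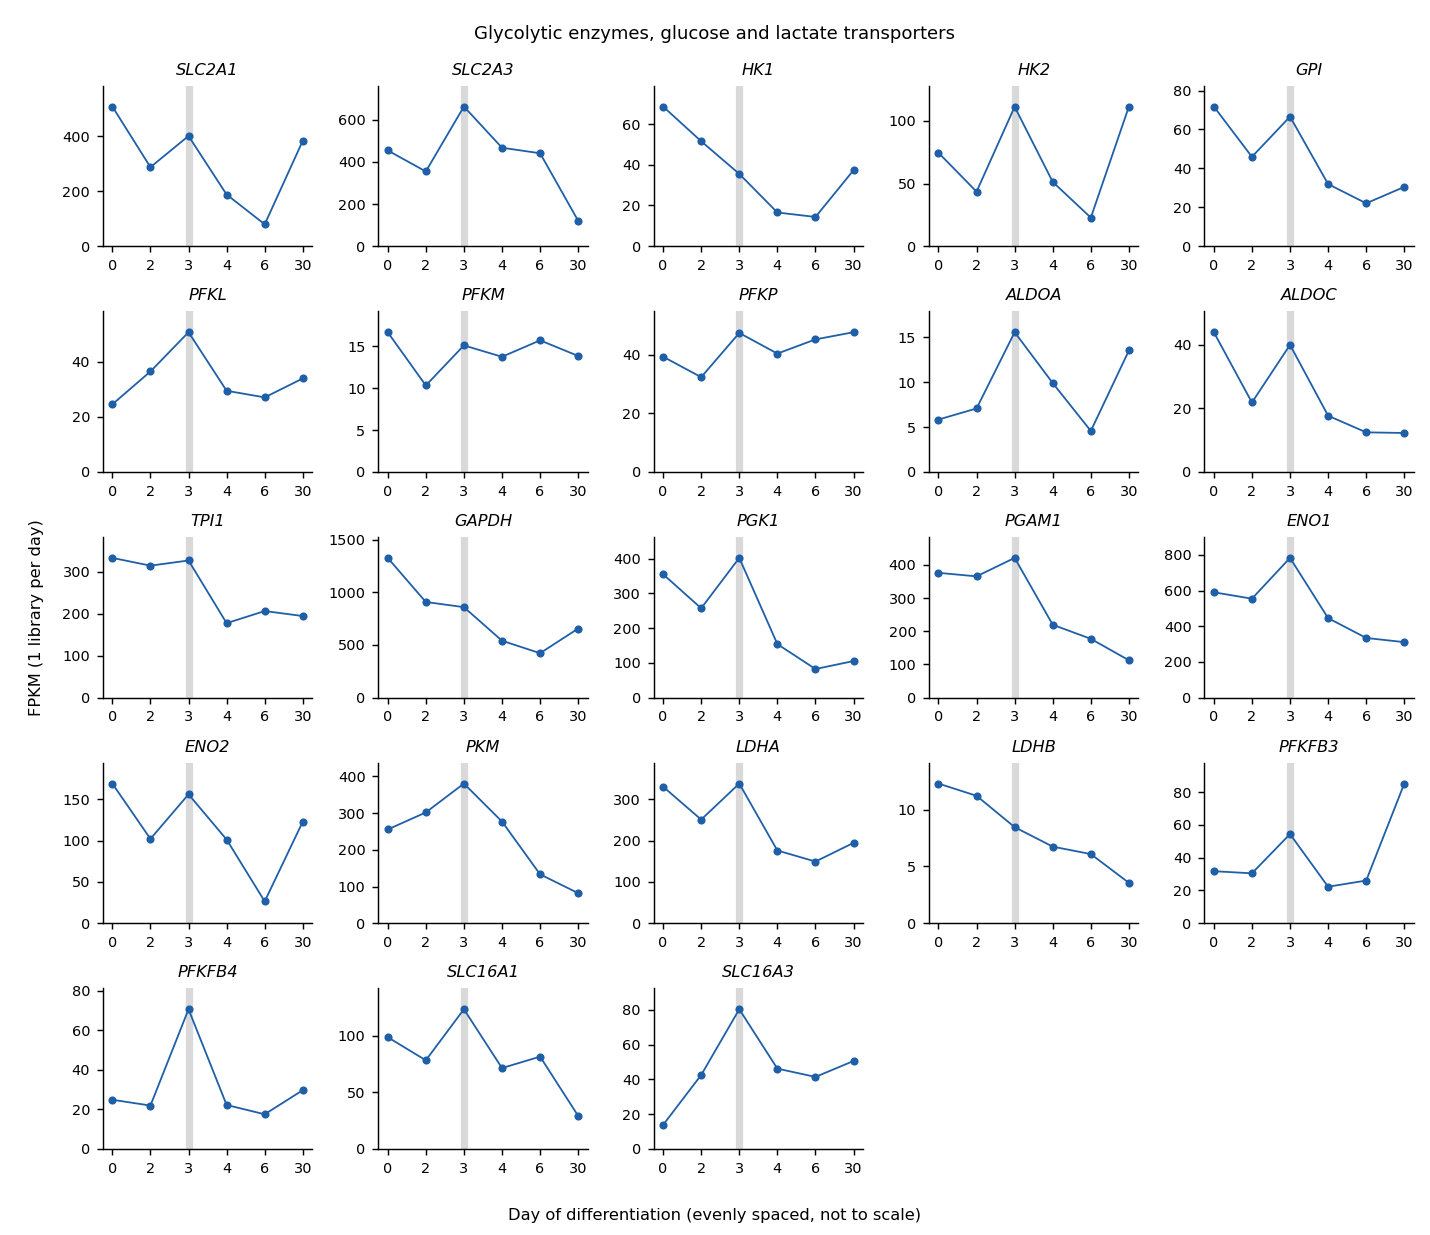
FPKM (vertical axes, each from 0) of the 23 glycolysis genes against the 6 days (horizontal, evenly spaced), 1 point per library, with a grey band at day 3. In 20 of the 23 panels the day 3 point lies above those of day 2 and day 4, and HK1, GAPDH and LDHB are the exceptions.

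Across the 6 libraries most glycolysis genes had their highest level at day 0 or day 3 and their lowest at day 6 or day 30. The highest level fell on day 3 in 11 of the 23 genes and on day 0 in 9, against 9.08% and 21.5% of the 20481 genes with at least 1 FPKM on any day. The count for day 0 was 5 under scaling by read totals and 4 as TPM, a scaling in which each library sums to the same value, and that for day 3 was 17 as TPM. Lowest levels fell on day 6 in 10 of the 23 and on day 30 in 7, against 13.4% and 27.3% of those genes. The day 30 count thus lay near the share of all genes. Under scaling by read totals the order turned, with 8 lowest at day 6 and 10 at day 30. The day 3 level stood above both day 2 and day 4 in 20 of 23 glycolysis genes and 10 of 13 hypoxia genes, against 26.3% of the 20481. Summed over the 23 genes, expression was 5228 FPKM at day 0, 4131 at day 2, 5452 at day 3, 3127 at day 4, 2388 at day 6 and 2782 at day 30. Their share of all reads was 2.39% at day 0 (2.39 to 2.40), 2.94% at day 3 (2.93 to 2.95), 1.34% at day 6 (1.33 to 1.35) and 1.10% at day 30 (1.09 to 1.10). From day 6 to day 30 the summed FPKM thus rose while the share of reads fell. The denominator behind FPKM was 1.12 times the recovered read total at day 6 and 0.826 times it at day 30. A smaller denominator raises every FPKM of its library, so FPKM ratios of day 30 to day 6 carry this difference.

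**Figure D2:**
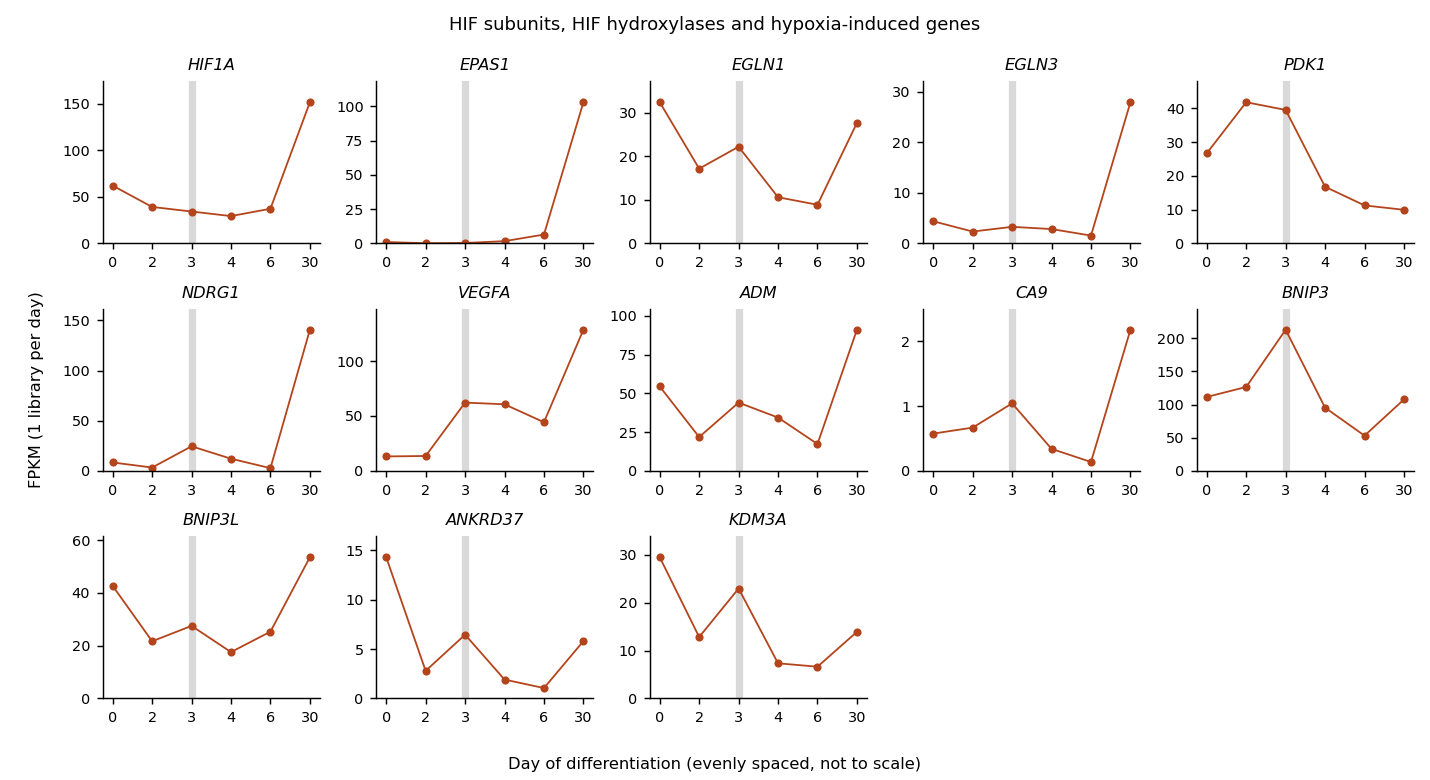
FPKM (vertical axes, each from 0) of the 13 hypoxia genes against the 6 days (horizontal, evenly spaced), 1 point per library, with a grey band at day 3. The highest point is at day 30 in 8 of the 13 panels, among them EPAS1 at 103 FPKM and NDRG1 at 141 FPKM.

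As a sum, the 13 hypoxia genes had the same dip and peak up to day 6 but were highest at day 30. Together they had 401 FPKM on day 0 and 304 on day 2, then 501 at day 3, 291 at day 4, 216 at day 6 and 864 at day 30. The last day held the highest level of 8 of the 13, against 31.9% of the 20481 genes, and day 6 the lowest of 8, against 13.4%. In FPKM, PDK1 alone peaked at day 2 and BNIP3 alone at day 3. As TPM, PDK1 stood higher at day 3 than at day 2 (log2 difference 0.15, against -0.08 in FPKM).

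The first step, day 2 against day 0, asks what changed as cells left the stem cell state. The lactate exporter SLC16A3 was the only glycolysis gene of the 23 to rise, and none fell, against 8.78% and 7.75% of all genes measured. SLC16A3 had 13.8 FPKM at day 0, 42.6 at day 2, 80.4 at day 3, 46.2 at day 4, 41.5 at day 6 and 50.6 at day 30. Its day 0 level was thus the lowest of the 6, and day 2 stood 3.08-fold higher (2.92 to 3.25). Small decreases were common among the rest, with 19 of 23 genes lower at day 2 and a median log2 difference of -0.33, against -0.03 over all genes measured. Of the hypoxia genes, 12 were measured, 4 fell and none rose, with a median of -0.82. CA9 was under 1 FPKM in both libraries.

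ANKRD37, a small ankyrin-repeat protein gene induced by HIF, showed the greatest fall of that step among the 36. Day 0 had 14.3 FPKM, day 2 had 2.79, day 3 had 6.46, day 4 had 1.91, day 6 had 1.05 and day 30 had 5.80. No later library came near the day 0 level, and day 2 was 5.12-fold lower (4.18 to 6.31). The vasodilator peptide ADM (54.5 to 21.9 FPKM, 2.49-fold lower, 2.31 to 2.69) and the histone demethylase KDM3A (29.5 to 12.8 FPKM, 2.30-fold lower, 2.20 to 2.41) fell in the same step. NDRG1, a stress-responsive gene, fell from 8.47 to 3.41 FPKM (2.48-fold lower, 2.24 to 2.75).

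**Figure D3:**
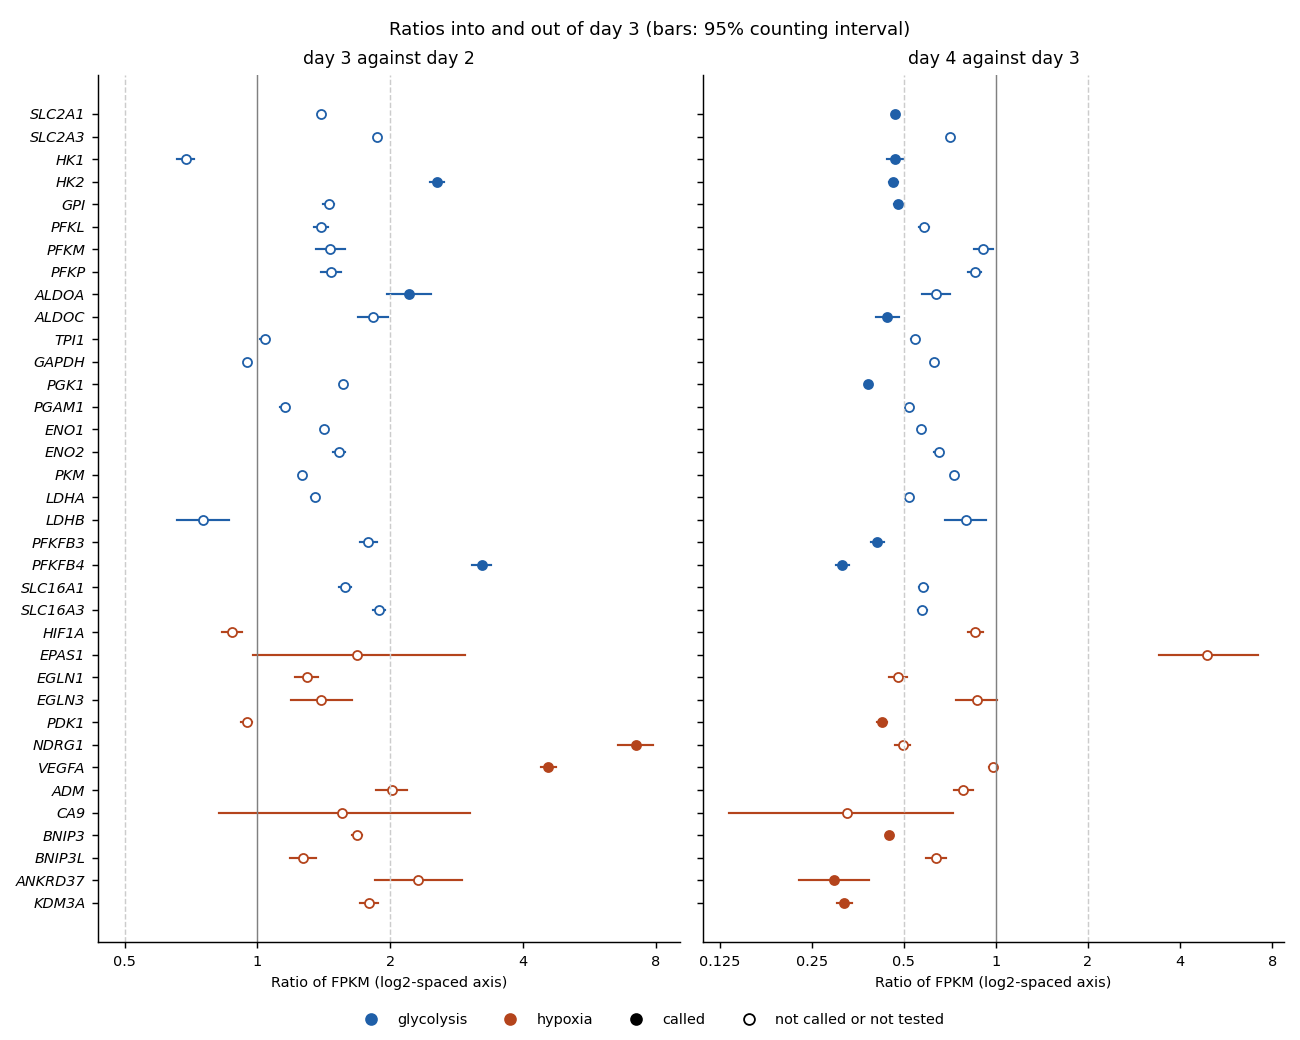
Ratios of FPKM (horizontal, log-spaced) for the 36 genes in day 3 against day 2 (left) and day 4 against day 3 (right), with bars for the 95% counting interval, dashed lines at ratios of 0.5 and 2 and filled points for genes that passed the rule. In the right panel all 23 glycolysis points lie below 1, while EPAS1 lies above it.

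Between day 2 and day 3, 3 of the 23 glycolysis genes rose and none fell, against 7.13% and 4.98% of all genes measured. As TPM 7 rose, with SLC2A3, ALDOC, PFKFB3 and SLC16A3 added. Increases that missed the rule were widespread, since 20 of 23 were higher at day 3 and the median difference was 0.53, against -0.02 over all genes measured. PFKFB4 makes fructose-2,6-bisphosphate, the strongest activator of phosphofructokinase. It had 24.9 FPKM at day 0, 21.9 at day 2, 70.6 at day 3, 22.2 at day 4, 17.5 at day 6 and 29.7 at day 30. The day 3 level stood apart from the other 5 libraries, at 3.22-fold the day 2 level (3.07 to 3.39).

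Hexokinase HK2, which traps glucose in the cell by phosphorylation, had 74.5 FPKM at day 0, 43.5 at day 2, 111 at day 3, 51.3 at day 4, 22.8 at day 6 and 111 at day 30. In FPKM, day 3 and day 30 were thus level, although day 30 was the lower under read totals and as TPM. The rise into day 3 was 2.56-fold (2.47 to 2.65). Its paralog HK1 did not share that peak and stood at 51.6 FPKM at day 2 and 35.5 at day 3. Aldolase ALDOA rose from 7.07 to 15.6 FPKM (2.20-fold, 1.963 to 2.47), but much of its exon sequence is shared with another gene, so its reads may be incomplete.

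Of 12 measured hypoxia genes, NDRG1 and VEGFA rose between day 2 and day 3 and none fell, against 7.13% and 4.98% of all genes measured. The median difference was 0.55, against -0.02 over all genes measured. NDRG1 climbed from 3.41 to 24.6 FPKM, 7.20-fold (6.57 to 7.90). VEGFA had 13.2 FPKM at day 0, 13.6 at day 2, 62.2 at day 3, 60.6 at day 4, 44.3 at day 6 and 128 at day 30. Days 0 and 2 were alike, day 3 was 4.57-fold above day 2 (4.39 to 4.75), and the level was still 60.6 FPKM at day 4, when most other members were lower. ADM (log2 difference 0.98) and ANKRD37 (0.98) lay just under the limit of 1 and passed it under scaling by read totals and as TPM.

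Day 4 against day 3 showed the reverse in the glycolysis genes. All 23 were lower at day 4, 8 of them fell and none rose, against 3.59% and 4.23% of all genes measured, and the median difference was -0.81, against -0.0041 over all genes measured. The glucose transporter SLC2A1, which supplies basal glucose uptake, had 509 FPKM at day 0, 288 at day 2, 402 at day 3, 188 at day 4, 79.8 at day 6 and 384 at day 30. Its fall at day 4 was 2.13-fold (2.09 to 2.18), and day 6 was the low point.

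Phosphoglycerate kinase PGK1 makes the first ATP of the pathway. It had 355 FPKM at day 0, 257 at day 2, 402 at day 3, 154 at day 4, 82.2 at day 6 and 105 at day 30, so that the day 4 level was 2.61-fold below day 3 (2.56 to 2.67). Its 3 latest libraries all lay below the 3 earliest ones. PFKFB4 (3.18-fold, 3.03 to 3.34) and its relative PFKFB3 (54.4 to 22.3 FPKM, 2.44-fold, 2.32 to 2.57) fell in that step too. Both hexokinases, HK1 (2.14-fold, 2.02 to 2.28) and HK2 (2.17-fold, 2.10 to 2.25), fell with the isomerase GPI (2.09-fold, 2.02 to 2.16) and aldolase ALDOC (2.26-fold, 2.08 to 2.46). TPI1 (log2 difference -0.88), PGAM1 (-0.94) and LDHA (-0.94) were just outside the limit and passed it as TPM.

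Among the 13 hypoxia genes, 12 were lower at day 4 than at day 3, 4 fell and none rose, against 3.59% and 4.23% of all genes measured, with a median of -0.62. EPAS1 (0.344 to 1.68 FPKM) just missed a rise and was called under read totals and TPM. EGLN1 just missed a fall and was called under both, while NDRG1 and CA9 were called as TPM, which made 7 falls. KDM3A fell most in log2(FPKM + 1), from 22.98 to 7.34 FPKM (3.13-fold, 2.95 to 3.32), followed by ANKRD37. The ratio of ANKRD37 was the larger (3.38-fold, 2.60 to 4.42), but the added 1 weighs more at its lower levels. PDK1, the kinase that blocks pyruvate dehydrogenase and so keeps pyruvate out of mitochondria, had 26.7 FPKM at day 0, 41.8 at day 2, 39.5 at day 3, 16.8 at day 4, 11.3 at day 6 and 9.95 at day 30. Its high point was days 2 and 3, and the fall at day 4 was 2.36-fold (2.27 to 2.45). The mitophagy receptor BNIP3 went from 213 to 95.2 FPKM (2.23-fold, 2.17 to 2.29).

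Both steps around day 3 use the same day 3 library, so a rise into it and a fall out of it are not separate observations. That library also held fewer mitochondrially encoded reads (2.92%) than day 2 (5.93%) or day 4 (5.15%), and the part of this in the day 3 levels was not tested. The count of members above both neighbours at day 3 was 20 glycolysis and 10 hypoxia genes under scaling by read totals, and 21 and 12 as TPM.

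From day 4 to day 6, 4 of 23 glycolysis genes fell and none rose, against 6.71% and 5.51% of all genes measured, with a median of -0.31 against -0.0069. Enolase ENO2, the neuronal isoform also induced by hypoxia, had 169 FPKM at day 0, 102 at day 2, 156 at day 3, 101 at day 4, 26.4 at day 6 and 123 at day 30. Its lowest level was that of day 6, 3.83-fold below day 4 (3.65 to 4.03). SLC2A1 fell again (2.36-fold, 2.29 to 2.43). HK2 (2.25-fold, 2.14 to 2.37) and PKM (277 to 133 FPKM, 2.08-fold, 2.04 to 2.12) fell as well, but neither call held as TPM, and that of PKM was also lost under read totals.

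In the hypoxia set 1 of 12 measured genes rose and 1 fell at day 6, near the 5.51% and 6.71% of all genes measured. The median was -0.47, against -0.0069 over all genes measured. NDRG1 fell from 12.2 to 2.82 FPKM (4.33-fold, 3.91 to 4.79). EPAS1, the HIF alpha subunit typical of endothelium and other specialised cells, rose from 1.68 to 6.48 FPKM (3.85-fold, 3.29 to 4.53). Over the same step the 5 endothelial markers went from a sum of 20.8 to 45.1 FPKM. By day 30, where EPAS1 was highest, that sum was lower, at 35.3 FPKM. Most of the sum was EGFL7, with 7.95 FPKM already at day 0, 17.97 at day 4, 29.9 at day 6 and 27.9 at day 30. CDH5, TIE1, TEK and PECAM1 were also higher at day 6 than at day 4. At day 30 CDH5 (0.319 FPKM), TIE1 (0.484) and TEK (5.66) were below their day 6 levels of 3.76, 2.78 and 7.85 FPKM. PECAM1 was slightly above its own day 6 level. The part of these markers in the EPAS1 level was not tested.

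**Figure D4:**
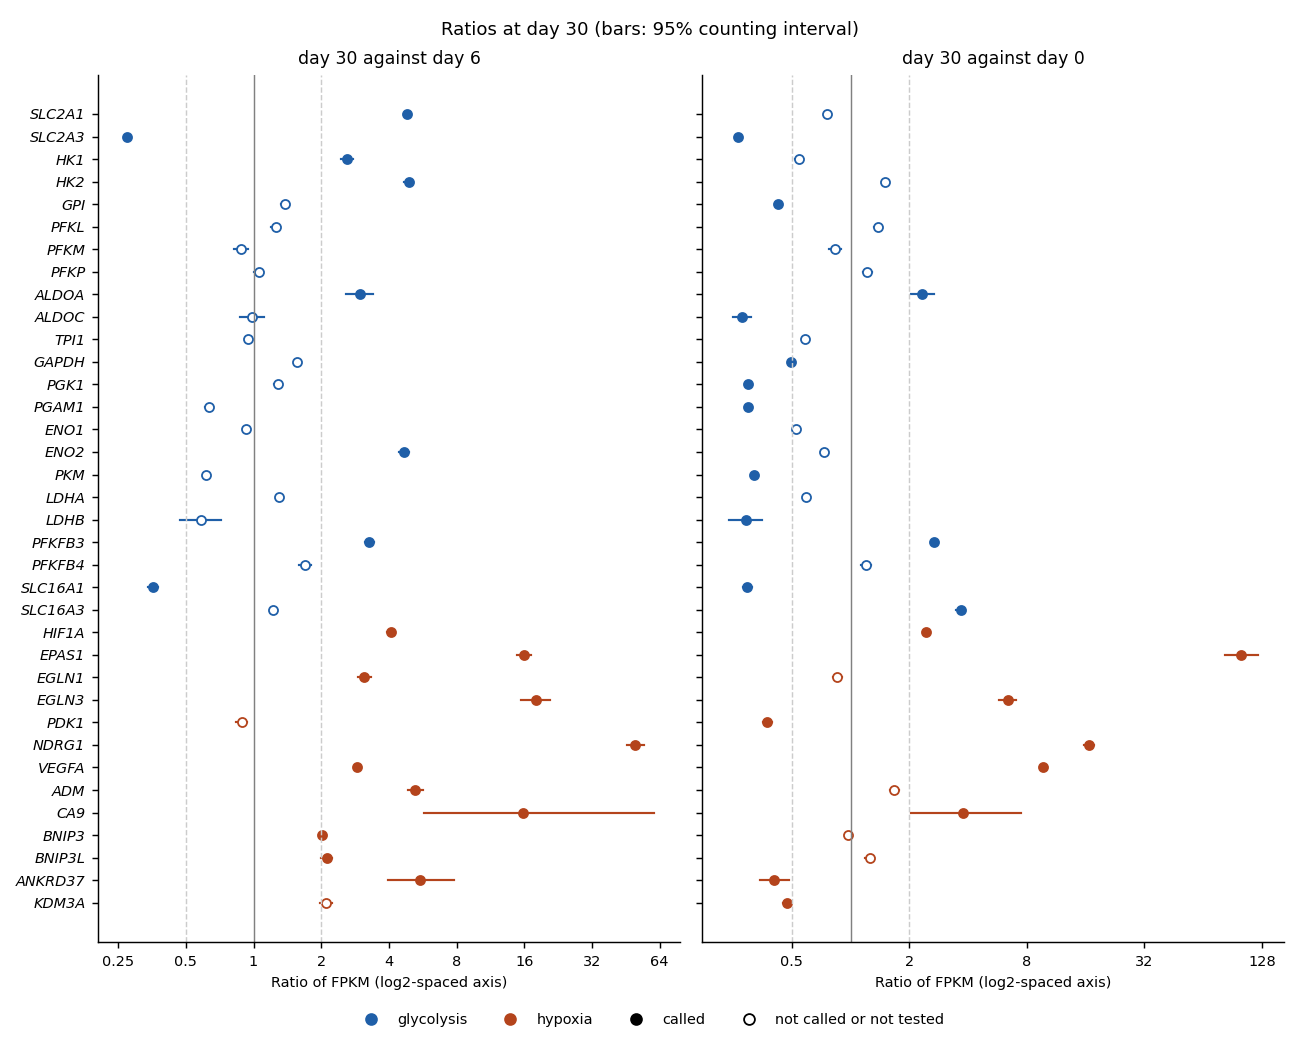
Ratios of FPKM (horizontal, log-spaced) for the 36 genes in day 30 against day 6 (left) and day 30 against day 0 (right), with bars for the 95% counting interval, dashed lines at ratios of 0.5 and 2 and filled points for genes that passed the rule. The hypoxia points lie mostly to the right of 1 in the left panel, up to 49.9 for NDRG1, while the glycolysis points lie on both sides.

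At day 30 against day 6, 11 of the 13 hypoxia genes rose and none fell, against 21.0% and 15.3% of all genes measured, with a median difference of 1.54 against 0.08. The HIF alpha subunits were among them. HIF1A had 62.2 FPKM at day 0, 39.3 at day 2, 34.3 at day 3, 29.4 at day 4, 37.3 at day 6 and 152 at day 30. The day 30 level stood above all earlier libraries, at 4.07-fold the day 6 level (3.91 to 4.23). In FPKM, HIF1A did not share the day 3 peak of the glycolysis genes (log2 difference of -0.19 from day 2 to day 3). As TPM its day 3 level lay slightly above day 2 (0.04).

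EPAS1 changed over the widest range of the 36 genes. It had 1.03 FPKM at day 0, 0.204 at day 2, 0.344 at day 3, 1.68 at day 4, 6.48 at day 6 and 103 at day 30, or 15.9-fold from day 6 to day 30 (14.8 to 17.1). Only 24 and 36 reads stood behind the day 2 and day 3 levels.

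Of the oxygen-sensing hydroxylases, which mark the alpha subunits for breakdown, EGLN1 and EGLN3 rose in this step. EGLN3, the family member most induced by HIF, had 4.39 FPKM at day 0, 2.35 at day 2, 3.29 at day 3, 2.85 at day 4, 1.56 at day 6 and 27.9 at day 30. It was thus low in all libraries but the last, which stood 17.9-fold above day 6 (15.5 to 20.8). EGLN1, the main hydroxylase in normal oxygen, went from 8.87 to 27.6 FPKM (3.12-fold, 2.90 to 3.35) and so stood near its day 0 level of 32.4.

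NDRG1 showed the greatest increase of this step, from 2.82 to 141 FPKM (49.9-fold, 45.6 to 54.8). ADM rose from 17.4 to 91.1 FPKM (5.24-fold, 4.85 to 5.67) and VEGFA from 44.3 to 128 FPKM (2.90-fold, 2.83 to 2.96). Carbonic anhydrase CA9, a widely used hypoxia marker, had 0.577 FPKM at day 0, 0.669 at day 2, 1.04 at day 3, 0.341 at day 4, 0.139 at day 6 and 2.18 at day 30. CA9 remained the lowest of the 13 genes at day 30 and rested on 4 reads at day 6 and 45 at day 30, so its ratio of 15.7 has a wide interval (5.74 to 60.3).

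ANKRD37 rose 5.51-fold (3.98 to 7.76), BNIP3 2.02-fold (1.95 to 2.10) and BNIP3L, its paralog in mitophagy, 2.11-fold (1.99 to 2.24). The last 2 calls sat at the limit and were lost under read totals and TPM. KDM3A (6.64 to 13.9 FPKM, log2 difference 0.97) was just under it. PDK1 was the one hypoxia gene lower at day 30, at 9.95 FPKM against 11.3. Day 30 is also where the sums of the fibroblast markers and of the endoderm and liver markers were highest, though FOXA2 was not. The part of these markers in the hypoxia gene levels was not tested.

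Of the 23 glycolysis genes 6 rose and 2 fell at day 30 against day 6, near the 21.0% and 15.3% of all genes measured. The falls numbered 4 under read totals (with PGAM1 and PKM) and 4 as TPM (with PKM and LDHB). SLC2A1 rose 4.82-fold (4.69 to 4.95), HK2 4.89-fold (4.68 to 5.12) and ENO2 4.66-fold (4.43 to 4.90). PFKFB3, whose product drives phosphofructokinase, had 31.8 FPKM at day 0, 30.5 at day 2, 54.4 at day 3, 22.3 at day 4, 26.1 at day 6 and 85.3 at day 30, the highest of its 6 levels (3.27-fold above day 6, 3.13 to 3.42). HK1 (14.4 to 37.4 FPKM, 2.60-fold, 2.45 to 2.77) and ALDOA (4.56 to 13.5 FPKM, 2.97-fold, 2.59 to 3.41) rose too, although neither call held under read totals.

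SLC2A3, the high-affinity glucose transporter of embryonic and neural cells, went the other way. It had 455 FPKM at day 0, 355 at day 2, 663 at day 3, 468 at day 4, 442 at day 6 and 121 at day 30. All 5 early libraries stood far above day 30, which was 3.66-fold below day 6 (3.58 to 3.74). The lactate and pyruvate transporter SLC16A1 (81.7 to 29.3 FPKM, 2.79-fold, 2.66 to 2.94) fell as well. The median of the 23 was 0.32 against 0.08 over all genes measured, and turned to -0.11 under read totals, which moved the median of all genes to -0.33. As TPM it was 0.02, with a median of all genes of -0.22.

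Against day 0, more glycolysis genes fell than rose by day 30. GAPDH, PGK1, PGAM1 and PKM, which act after aldolase, fell, as did GPI, ALDOC and SLC2A3, which act at or before that step. Among hypoxia genes, 6 rose, both HIF alpha subunits with them, and 3 fell. Of the 23 glycolysis genes 9 fell and 3 rose, against 19.1% and 25.9% of all genes measured, with a median of -0.77 against 0.13. Pyruvate kinase PKM, the last enzyme before lactate dehydrogenase, had 256 FPKM at day 0, 302 at day 2, 381 at day 3, 277 at day 4, 133 at day 6 and 82.0 at day 30. It peaked at day 3 and was lowest at day 30, 3.12-fold below day 0 (3.04 to 3.19).

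PGK1 (3.38-fold, 3.29 to 3.47), the mutase PGAM1 (376 to 112 FPKM, 3.35-fold, 3.23 to 3.47) and GPI (2.35-fold, 2.27 to 2.44) fell. GAPDH, often used as a reference gene, had 1327 FPKM at day 0, 908 at day 2, 859 at day 3, 540 at day 4, 421 at day 6 and 656 at day 30. Its fall was 2.02-fold (1.99 to 2.05), a call lost as TPM, and its 6 levels spanned a 3.15-fold range. SLC2A3 (3.77-fold, 3.69 to 3.86), SLC16A1 (3.38-fold, 3.22 to 3.56) and ALDOC (3.59-fold, 3.24 to 3.99) fell too. LDHB fell from 12.3 to 3.55 FPKM (3.46-fold, 2.85 to 4.22).

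Enolase ENO1 (590.2 to 310.5 FPKM), triose phosphate isomerase TPI1 (333 to 194) and LDHA, the enzyme that makes lactate (331 to 195), were also lower but missed the rule, which all passed under read totals. Those that rose were SLC16A3 (3.67-fold, 3.48 to 3.87), PFKFB3 (2.68-fold, 2.57 to 2.81) and ALDOA (2.32-fold, 2.03 to 2.66), the last a call lost under read totals. None of the 3 phosphofructokinase genes, which encode the committed step, was called. PFKP had 39.4 FPKM at day 0 and 47.8 at day 30, PFKM 16.7 and 13.8, and PFKL 24.6 and 34.0.

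In the hypoxia set 6 of 13 rose and 3 fell from day 0 to day 30, against 25.9% and 19.1% of all genes measured, with a median of 0.73 against 0.13. EPAS1 stood 100.1-fold higher (82.9 to 122), NDRG1 16.6-fold (15.7 to 17.6), VEGFA 9.72-fold (9.34 to 10.1) and EGLN3 6.37-fold (5.77 to 7.04). HIF1A was 2.44-fold higher (2.36 to 2.53), and CA9, from 14 reads at day 0, 3.78-fold (2.04 to 7.46), with a call lost under read totals. PDK1 (2.68-fold, 2.54 to 2.83), ANKRD37 (2.46-fold, 2.08 to 2.93) and KDM3A (2.12-fold, 2.02 to 2.23) fell. BNIP3 had 111 FPKM at day 0 and 108 at day 30.

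Since the glycolysis sum peaked at day 3 and that of the hypoxia genes at day 30, those 2 days were also compared, a choice made after the values were seen. Falls in the first set and rises in the second were largely built into that choice. The shares of all genes below were not chosen in that way, so they only describe. None of the 23 glycolysis genes rose and 10 fell, against 21.1% and 15.6% of all genes measured, while 6 of 13 hypoxia genes rose and PDK1 fell. Medians were -0.75 and 0.94, against 0.06 over all genes measured. SLC2A3 (5.50-fold lower, 5.38 to 5.62) and PKM (4.64-fold lower, 4.54 to 4.75) were the glycolysis genes with the greatest falls. HK2 was level at 111 FPKM on both days, and SLC2A1 stood at 402 and 384. The log2 difference of HK2 became -0.36 under read totals and -0.24 as TPM. The VEGFA (2.07-fold, 2.02 to 2.11) and ADM (2.07-fold, 1.95 to 2.19) rises lay at the limit and were not called under read totals or TPM.

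**Figure D5:**
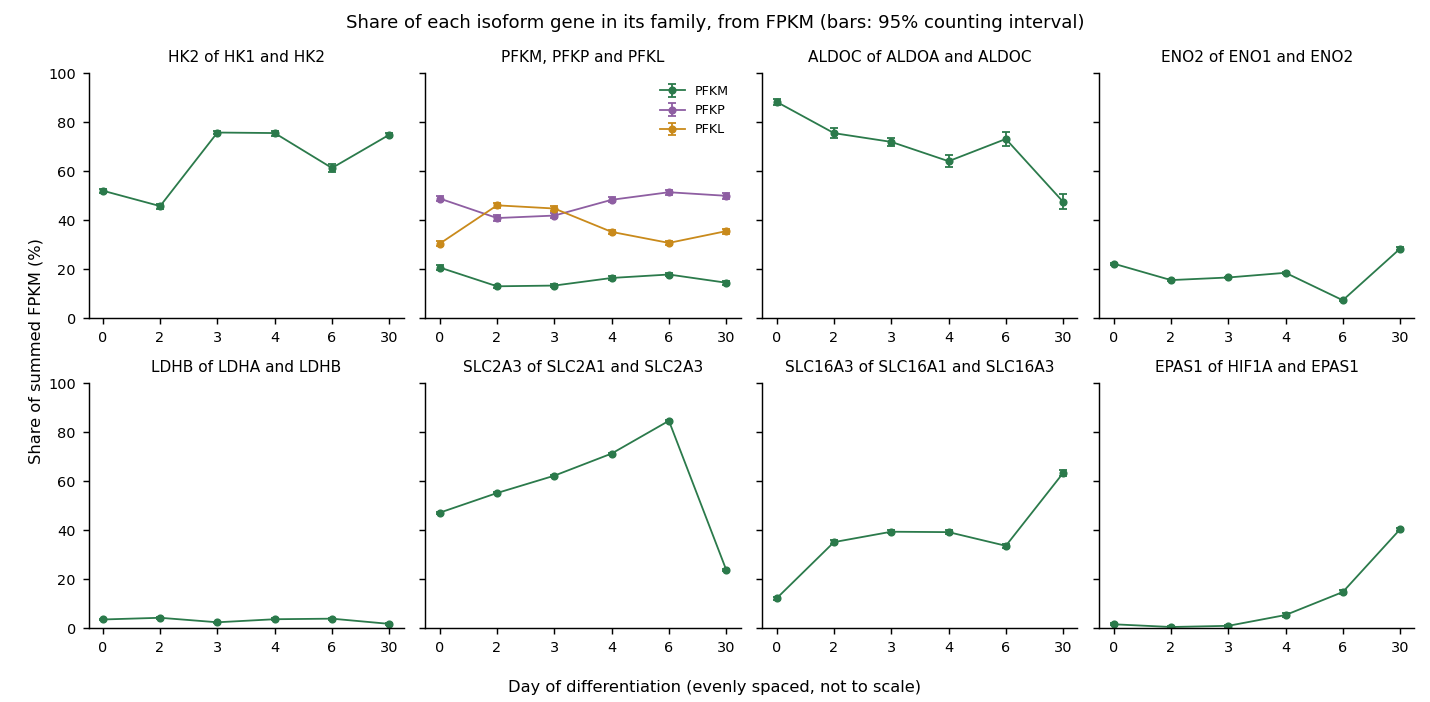
Share of the summed FPKM of a gene family (vertical, 0 to 100%) held by the named member against the 6 days (horizontal, evenly spaced), with bars for the 95% counting interval. SLC2A3 goes up to 84.7% at day 6 and down to 23.9% at day 30, and EPAS1 goes from 1.63% at day 0 to 40.4% at day 30.

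The members of a family did not keep a constant ratio. SLC2A3 held 47.2% of the SLC2A1 and SLC2A3 total at day 0, 55.2% at day 2, 62.3% at day 3, 71.3% at day 4, 84.7% at day 6 and 23.9% at day 30 (23.4 to 24.3). That share stood higher at each day up to day 6, and day 30 was its lowest. SLC16A3 held 12.3% (11.7 to 12.8) of its pair with SLC16A1 at day 0, between 33.7% and 39.4% from day 2 to day 6 and 63.4% (62.2 to 64.6) at day 30.

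HK2 made up 52.1% of the hexokinase pair at day 0 and 45.8% at day 2, then 75.8% at day 3, 75.6% at day 4, 61.3% at day 6 and 74.9% at day 30. EPAS1 went from 1.63% (1.34 to 1.959) of the HIF alpha pair at day 0 to 0.517% at day 2, 0.991% at day 3, 5.403% at day 4, 14.8% at day 6 and 40.4% (39.7 to 41.1) at day 30. HIF1A therefore remained the more abundant of the pair on each day. ENO2 held 22.3% of the enolase pair at day 0, 7.33% at day 6 and 28.4% at day 30. Of phosphofructokinase FPKM, the platelet isoform PFKP held between 40.9% and 51.4% on the 6 days and the muscle isoform PFKM between 13.0% and 20.7%, with 14.5% (13.8 to 15.3) at day 30.

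Other genes of the pathway were taken from lists that hold none of the 36. Of 34 further HIF targets, 14 of 31 measured rose and 1 fell at day 3, against 7.13% and 4.98% of all genes measured. At day 4 none of 30 rose and 9 fell, against 4.23% and 3.59%. At day 30 against day 6, 25 of 33 rose and none fell, against 21.0% and 15.3%. The collagen cross-linking enzyme LOX had 4.41 FPKM at day 2, 29.8 at day 3, 2.64 at day 4 and 209 at day 30. DDIT4, a stress inhibitor of mTOR, went from 100.5 to 305 FPKM at day 3 (3.03-fold, 2.91 to 3.16), and the collagen prolyl hydroxylase P4HA1 from 63.5 to 190.2 (3.00-fold, 2.87 to 3.12). CA12, a relative of CA9, fell from 2.85 to 0.248 FPKM at day 3. Fibroblasts and other matrix cells are known to express LOX.

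Of 11 partners in oxygen sensing, 3 rose and none fell at day 30 against day 6, where 21.0% and 15.3% of all genes measured did. These were the HIF beta subunit ARNT (8.31 to 29.7 FPKM, 3.57-fold, 3.31 to 3.85), HIF3A (7.84 to 44.5 FPKM) and the HIF antagonist CITED2 (65.1 to 133 FPKM). The hydroxylase EGLN2, the ubiquitin ligase component VHL and HIF1AN were not called. VHL had between 15.1 and 23.9 FPKM on the 6 days.

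Of 13 genes that carry out, promote or block the entry of pyruvate into mitochondria, 4 rose and none fell at day 30 against day 6, beside 21.0% and 15.3% of all genes measured. The 4 differ in role: PDK4 blocks pyruvate dehydrogenase, PDP1 reactivates it, PDHX is a structural part of it, and PC turns pyruvate into oxaloacetate. PDK4, the pyruvate dehydrogenase kinase of heart and fasting muscle, had between 0.0275 and 0.115 FPKM up to day 6 and 106 at day 30. Its relative PDK1 stood at 9.95 FPKM on that day and PDK3 at 11.1. The pentose phosphate pathway, which branches off glycolysis to make NADPH and ribose, had 5 of 7 genes lower and none higher at day 30 against day 0, compared with 19.1% and 25.9% of all genes measured. Transketolase TKT went from 143 to 23.8 FPKM (6.00-fold, 5.77 to 6.24). Of 16 citric acid cycle genes 3 fell, near the 19.1% of all genes, and 1, SDHA, rose (11.03 to 24.03 FPKM), against 25.9%.

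Among 17 glycogen and gluconeogenesis genes, 15 were measured from day 0 to day 30, and 1 rose and 4 fell, beside 25.9% and 19.1% of all genes measured. UGP2, which makes the glucose donor for glycogen, fell from 157 to 35.9 FPKM (4.36-fold, 4.19 to 4.54), and the gluconeogenic enzyme PCK1 rose from 0.0606 to 5.82. Of 23 other glycolytic isoforms, 14 were measured, 4 rose and 2 fell over the same span, near those same shares. The hexokinase-like gene HKDC1 (0 to 3.46 FPKM) was among the 4, and the muscle mutase PGAM2 had no read on any day.

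Some levels are uncertain because the reads of overlapping or near-identical genes may have been split or dropped, and the strand setting of the counting is not given in the sources used here. Exons of 22 of the 36 genes share bases with another annotated gene, and 6 share at least 10%. ALDOA shares 53.5% of its exonic bases, 42.3% of them with the same-strand gene AC093512.2, and LDHB shares 33.4% with AC010197.2 on its own strand. Both were far below their paralogs, since ALDOC had 44.0 FPKM at day 0 against 5.84 for ALDOA, and LDHA 331 against 12.3 for LDHB. The shares of ALDOC (88.3% at day 0, 47.5% at day 30) and LDHB (3.58% and 1.79%) in their pairs carry that limit. CA9 (38.5%), ANKRD37 (35.2%), GAPDH (14.2%) and ALDOC (10.1%) overlap genes on the opposite strand. Pseudogenes named after GAPDH number 62, after BNIP3 39 and after PGAM1 13, and 16 of the 36 genes have at least 1.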

How the data were processed

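Poly-A RNA was sequenced from 1 library per day, per the labels' protocols. The submitters' processing notes name CASAVA, HISAT2 and featureCounts 1.5.0-p3. Settings, build and strandedness were not given in the sources used here. The authors deposited FPKM values for 58735 genes. Start and end of all 36 members equal those of GENCODE release 29 on GRCh38. Whole reads came from FPKM multiplied by length, which in each library was a multiple of a constant (100% of values above 0, within 0.001 read). Levels were compared as log2(FPKM + 1), and the added 1 compresses changes of low genes. Each fold is a quotient of 2 FPKM values, with its interval from an exact binomial test of the reads. Shares have Clopper-Pearson intervals (for 3 genes, a normal interval on the logit). Reads carry no molecular identifiers. The call rule and intervals were tested on simulated reads. Read totals and TPM were alternative scalings, and pseudocount, minimum and read shares were varied too. The members and lists were chosen with earlier results of these data known. All 36 members were eligible to be named, and of other lists at most the 3 called genes with the greatest rise and fall in a step. PDK3, PDHX, EGLN2, HIF1AN, VHL and PGAM2 were named after their values were seen.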

Additional observations from a re-analysis of the deposited data

How the results depend on the processing

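Of 40 results, recomputed in 166 combinations with an alternative, 144 stayed within a factor of 1.5 (counts) or within the counting interval (shares) and 22 moved. None was labelled reversed, but the rule for counts could not give that label. The median difference of the glycolysis genes at day 30 against day 6 did change sign, from 0.32 to -0.11 under read totals. No minimum, a minimum of 5 FPKM and an interval of the fold that excludes 1 moved no count. With a pseudocount of 0.1, the hypoxia genes that rose at day 3 became 4 and those that fell at day 4 became 7, and 1 rose at day 4 and 1 glycolysis gene fell at day 2. Scaling by read totals gave 4 hypoxia genes that rose at day 3, 1 at day 4, 4 glycolysis genes that fell at day 30 against day 6 and 5 highest at day 0. The planned trimmed-mean (TMM) scaling is not reported, because the deposited values are FPKM and not counts. As TPM, 7 glycolysis and 5 hypoxia genes rose at day 3, 1 hypoxia gene rose and 7 fell at day 4, 2 glycolysis genes fell at day 6 and 4 at day 30 against day 6, and 4 were highest at day 0 and 17 at day 3. Scaling by read totals differs from FPKM only in the denominator of each library. The cause of the other moves was not tested. Shares taken from reads and not per length changed from day 0 to day 30 by 6.49 percentage points for PFKL, -44.6 for ALDOC, -0.885 for LDHB, -24.8 for SLC2A3, 55.4 for SLC16A3 and 46.7 for EPAS1, against 5.08, -40.8, -1.79, -23.3, 51.1 and 38.8 from FPKM, as gene length enters 1 and not the other. No paired analysis was possible because each day has 1 library. Depth limits mostly CA9, with 4 to 45 reads, and EPAS1 before day 4.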
